A study of Oryza sativa with 6 samples.

Results

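The 3 two-colour arrays labelled as control, of 6 arrays in the study, compared roots of 6-4 with roots of Nipponbare while phosphorus (P) was supplied. They were taken by their titles, control replicates 1 to 3, and each array carried RNA of both lines. Nipponbare is a japonica rice cultivar, and 6-4 is a near-isogenic line with inserts from the indica cultivar Kasalath in its genome. Plants of both lines grew in 12 L pots of Andosol, a volcanic soil, with a high P content, and RNA came from 1.6 g of root. The other 3 arrays made the same comparison under P deficiency, and per the design text each line had 3 biological replicates per condition. All values are log2 ratios of 6-4 over Nipponbare within an array, so a negative value is a lower signal in 6-4. A lower signal can come from less transcript or from weaker binding of a Kasalath form of the sequence to a Nipponbare-type probe, and the ratios do not tell these apart. In whole roots, fewer cells of a type and less RNA per cell cannot be told apart either.

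Plants short of P raise high-affinity phosphate transporters at the root surface, secrete acid phosphatases and ribonucleases that free phosphate from organic compounds, and replace membrane phospholipids with galactolipids. SPX proteins sense the phosphate state and hold these responses down when P is ample. Kasalath is known as the donor of rice alleles that improve growth on soils poor in P. Resistance genes of the NBS-LRR class encode intracellular immune receptors, and rice cultivars often differ in which of them they carry.

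The dye order differed among the arrays: 6-4 was in Cy5 on replicate 2 and in Cy3 on replicates 1 and 3. Of the rice probes, 92.5% to 93.8% were well above background in Cy3 and 95.0% to 98.5% in Cy5. Replicate 2 stood apart from the other arrays. Its negative control spots were 5.06 times the local background in Cy3, against 2.86 and 1.45 on replicates 1 and 3. Over 20287 to 20479 probes, the log2 ratios correlated at 0.0939 between replicates 1 and 2, 0.0333 between 2 and 3 and 0.27 between 1 and 3, which share a dye order. The SD of the ratios was 0.30, 0.45 and 0.32 on replicates 1, 2 and 3. Replicate 2 ran against replicate 2 of the P-deficient arrays (r = -0.617 over 20469 probes), which holds the lines in the opposite dyes and had 4.8 times the local background at its negative controls. Effects of single arrays or dyes on that pair were not tested.

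In limma's fit with a dye term, 2653 of 20525 probes (12.9%) passed an adjusted p of 0.05. A probe was called when all 3 control arrays also shared its sign, which held for 1527 probes (7.44%): 706 higher (3.44%) and 821 lower (4%) in 6-4. The same sign on all 3 arrays, with no test, was seen for 29.3% of probes. Called probes leaned on replicate 2, which had the largest ratio in 71.6% of them, against 45.8% of all probes. The design itself favours this: as the only control array of its dye order, replicate 2 has more weight in the fitted value than replicate 1 or 3. The dye term also takes up part of a departure of replicate 2 from replicates 1 and 3. The SE and adjusted p of the fit are therefore no measure of the spread over the control arrays. Without replicate 2, both remaining arrays have 6-4 in Cy3, and 2 probes were called, AK059260 and AK106867. Without replicate 3 the number was 3560. The P-deficient arrays enter through the shared dye term and spread, and without their replicates 1, 2 and 3 in turn 236, 991 and 25 probes were called. With no dye term 24 were called. A block for the scanner software version gave 1182, and the arrays of version 7.1 alone gave 2490. Because of replicate 2, the ratios of all 3 arrays are given for the genes below, and the probes with a log2 ratio of at least 0.5 in the same direction on every array are treated as a separate set. There were 143 of them (0.697%), of which 139 (0.677%) were called, 119 lower and 20 higher. In that set the largest ratio came from replicate 2 for 31 of 139 probes.

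**Figure D1:**
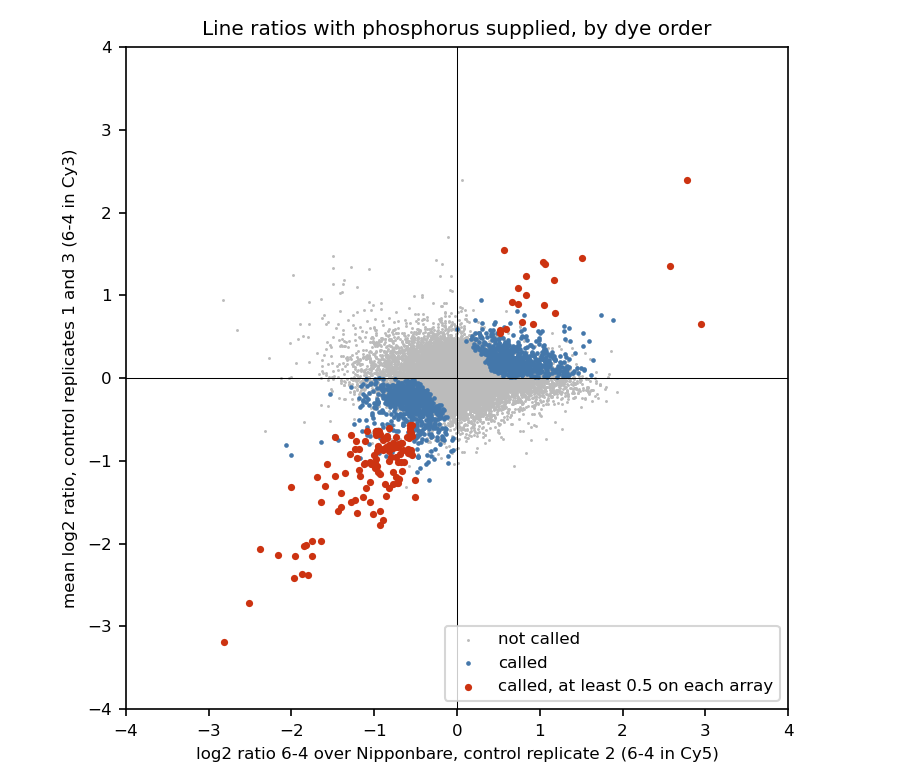
Each point is 1 of the tested probes, with its log2 ratio on control replicate 2 (6-4 in Cy5) on the x axis and the mean of replicates 1 and 3 (6-4 in Cy3) on the y axis. Grey points were not called, blue points were, and the 139 red points also had at least 0.5 on every array, 119 of them in the lower left.

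Among genes of P nutrition, 15 of 71 probes were lower in 6-4 than in Nipponbare and 1 was higher, over 4 lists covering transport, phosphate release, membrane lipids and phosphate sensing. Over all probes the shares were 4% lower and 3.44% higher, which stand as background for the counts of each list below. The lists were chosen with earlier results of these data known, which can favour such counts, so they are given as a description. Of the phosphate transporters 5 of 15 probes were lower and none higher, with a median of -0.13 against 0.0038 for all probes, and of -0.062 without replicate 1. The high affinity phosphate transporter 11 probe (AK062362) had ratios of -0.78, -1.40 and -1.99 on replicates 1, 2 and 3. It was lower in 6-4 on every array, and the fit gave -1.42 (SE 0.26, adjusted p = 0.0257). On the P-deficient arrays it was at -1.02, -0.16 and -0.062, so that only replicate 1 there reached the range of the control arrays. In rice this transporter is known for phosphate uptake at the fungal interface of mycorrhizal roots. The Pht1-2 probe AK101170 was at -0.59, -0.77 and -0.98, and the fit gave -0.77 (SE 0.092, adjusted p = 0.0152). Its P-deficient arrays lay at -0.13, -0.18 and -0.022, above every control array, and the difference between conditions was -0.65 (SE 0.13, adjusted p = 0.0196).

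Of the remaining called transporter probes, OsPT1 (AK063990, described from indica rice) was at -0.57, -0.47 and -1.33, and the fit gave -0.71 (SE 0.14, adjusted p = 0.0287). High affinity phosphate transporter 2 (AK108907) was at -0.82, -0.27 and -1.13, and the fit gave -0.60 (SE 0.11, adjusted p = 0.0259). These 2 overlapped their P-deficient arrays, at -0.19, -0.57 and -0.07 for OsPT1 and -0.50, -1.33 and -0.12 for transporter 2. A further probe described as transporter 2, AK070341, was at 0.015, 0.28 and 0.077 with P supplied and was not called. A second Pht1-2 probe (AK101380), named here after its values were seen, was at -0.41, -0.54 and -1.39, and the fit gave -0.73 (SE 0.18, adjusted p = 0.0464). Another, AK069054, was at 0.068, 0.18 and -0.11 and was not called. Probes that share a description can belong to different genes of a family, because the array design named each by its closest match.

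Of the enzymes that free phosphate from organic compounds 6 of 37 probes were lower and none higher. The list's median was -0.044, or -0.075 without replicate 2 and -0.032 without replicate 3. Purple acid phosphatases are secreted or vacuolar enzymes that cleave phosphate esters. A probe described from sweet potato (Ipomoea batatas, AK071643) was at -0.93, -0.67 and -0.64. It lay below every P-deficient array (0.13, -0.20 and 0.15), with a fitted control value of -0.71 (SE 0.086, adjusted p = 0.0152) and a difference between conditions of -0.70 (SE 0.12, adjusted p = 0.0136). A second probe of that description (AK066273), named after its values were seen, was at -0.98, -1.22 and -0.54 and overlapped the P-deficient arrays (0.11, -0.55 and -0.65). PAP22, named from Arabidopsis (AK073222), was at -0.74, -0.48 and -0.66, and the fit gave -0.57 (SE 0.07, adjusted p = 0.0152). Unlike AK071643, AK110804, also named after its values were seen, overlapped between P deficiency (-0.90, -0.69 and -0.96) and P supplied (-0.20, -1.03 and -0.64). Ribonucleases of this list release phosphate from RNA. The rice ribonuclease (AK058502) was at -0.53, -1.10 and -0.49, with a fitted value of -0.78 (SE 0.073, adjusted p = 0.0124), and it overlapped none of its P-deficient arrays (-0.24, 0.10 and -0.22). A barley aleurone ribonuclease probe (AK060320) was at -0.53, -0.54 and -0.87, and the fit gave -0.60 (SE 0.091, adjusted p = 0.0197).

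In membrane lipid remodelling 3 of 17 probes were lower and 1 was higher. The median was -0.039, or -0.031, -0.079 and -0.064 without replicates 1, 2 and 3 in turn. It was -0.015 with the authors' ratio, and 0.045 on replicate 3 alone. MGDG synthase, which makes the galactolipid MGDG (AK064148, named from Arabidopsis), was at -1.21, -0.80 and -0.70 with P supplied. On the P-deficient arrays it was at 0.048, -0.13 and 0.0077, and no array of one condition reached the other. The fit gave -0.88 (SE 0.11, adjusted p = 0.0152). A glycerophosphodiester phosphodiesterase, which breaks down deacylated phospholipids (AK071836, Arabidopsis), had similar values, at -0.94, -0.67 and -0.63 with P and 0.20, -0.21 and -0.28 without, and the fit gave -0.72 (SE 0.11, adjusted p = 0.0207). Another probe of that description, AK066596, was at -0.11, 0.022 and 0.15 with P and was not called. Of the phospholipases D, which cleave phospholipid head groups, a maize-named probe (AK072121) was at -0.17, -0.43 and -0.14 and the cotton-named delta form (AK069703) at 0.11, 0.85 and 0.035. The latter was the higher probe of the list and rested on replicate 2. In phosphate sensing 1 of 2 probes was lower, the ids4-like protein of the SPX family (AK107245, Arabidopsis), at -0.70, -1.09 and -0.48, where the fit gave -0.80 (SE 0.11, adjusted p = 0.0173). The other probe of that description, AK063544, was at -0.72, -0.50 and -0.22 and was not called.

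**Figure D2:**
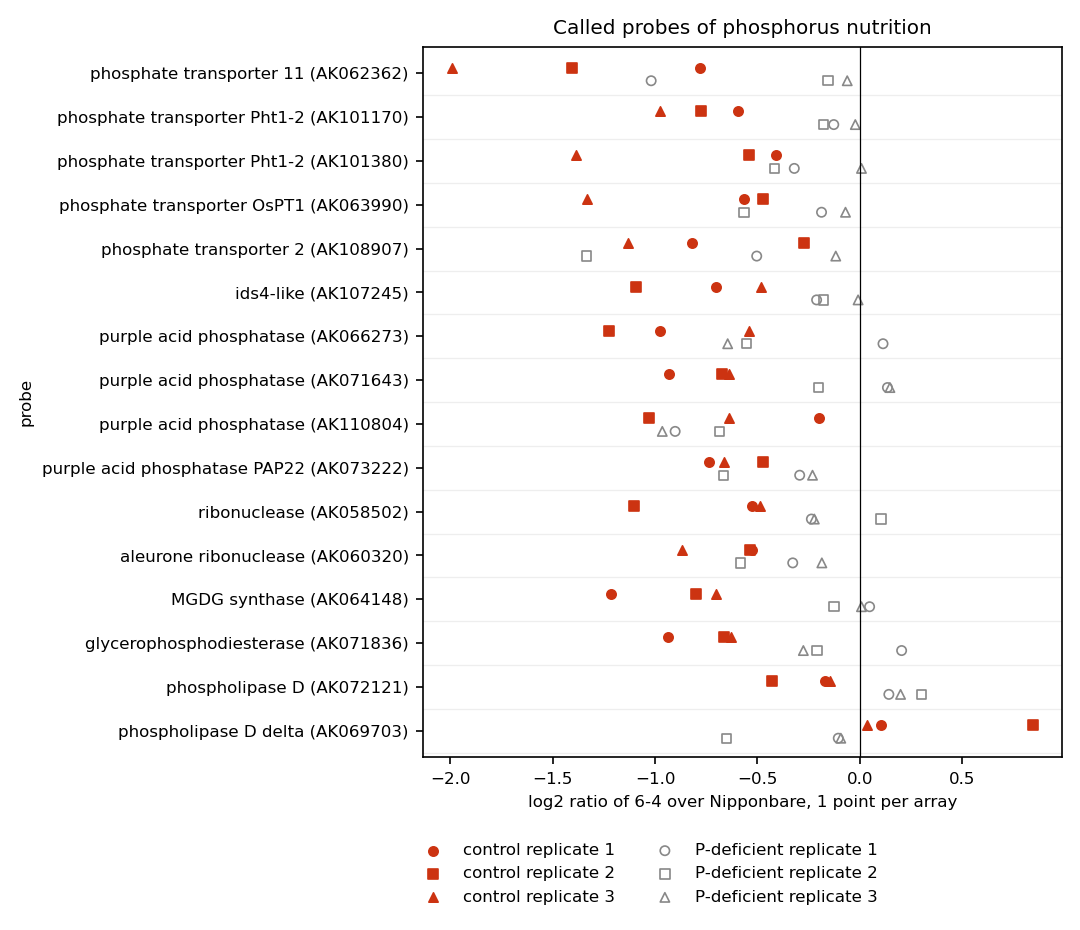
Log2 ratio of 6-4 over Nipponbare (x axis) on each array for the 16 called probes of the 4 P nutrition lists, 3 with P supplied (filled) and 3 under P deficiency (open). The MGDG synthase probe lay between -1.21 and -0.70 with P and between -0.13 and 0.048 without.

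Nitrogen uptake and assimilation had 5 of 46 probes lower and 2 higher, against 4% and 3.44% of all probes. The list's median of -0.0077 turned to 0.037 without replicate 2. Both probes of the nitrate transporter Nrt2, a high-affinity carrier of the root, were lower on every array. AK072215 was at -1.42, -1.28 and -1.56 (fit -1.40 (SE 0.18, adjusted p = 0.0155)) and AK109733 at -0.80, -0.74 and -0.86 (fit -0.82 (SE 0.085, adjusted p = 0.0145)). Under P deficiency they were at -0.70, -0.29 and 0.29 and at -0.22, 0.13 and -0.16, above the control arrays in each case. Alanine aminotransferase, which moves amino groups between alanine and glutamate (AK107237), was at -1.20, -1.10 and -1.46. It was near or above 0 on the P-deficient arrays (0.44, 0.14 and -0.11), with a fitted control value of -1.23 (SE 0.12, adjusted p = 0.0138) and a difference of -1.37 (SE 0.18, adjusted p = 0.00681). Other probes of its description, AK059063 and AK102488, were not called, at 0.29, 0.14 and 0.37 and at 0.16, -0.31 and 0.24. The soybean-named symbiotic ammonium transporter SAT1 (AK107190) was the opposite case: higher at 0.061, 1.53 and 0.12, it rested on replicate 2, and its Nipponbare channel was well above background on 2 of 3 arrays.

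ATP-driven ABC transporters included a line difference that varied little over the arrays. A P-glycoprotein probe (AK107554, Arabidopsis) was at -1.07, -1.17 and -1.30 with P supplied and at 0.033, 0.037 and -0.016 without. These 2 sets of arrays lay more than 1 log2 unit apart, and the fit gave -1.18 (SE 0.075, adjusted p = 0.00405), a 2.27-fold lower signal in 6-4. A second ABC transporter (AK067653, Arabidopsis) was at -1.08, -0.86 and -1.76, fit -1.17 (SE 0.14, adjusted p = 0.0152), and at 0.048, -0.062 and 0.18 without P. A wheat-named multidrug resistance homologue (AK108373) was lower as well, at -0.67, -0.57 and -0.79. PED3, a peroxisomal transporter in Arabidopsis (AK064992), was higher at 0.34, 1.16 and 0.13, with its Nipponbare channel well above background on 2 of 3 arrays. The list had 3 of 57 probes lower and 1 higher, 7.02% in all, and its median of -0.017 turned to 0.042 in the authors' ratio.

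Called enzymes of specialised metabolism were lower more often than higher. Of 113 cytochrome P450 probes, monooxygenases of many pathways, 16 were lower and 6 higher. The median of all 113 was -0.057 and turned to 0.029 without replicate 2. AK072715, named from Matthiola incana, was at -0.97, -1.35 and -1.33, against -0.19, -0.13 and -0.45 without P, and the fit gave -1.25 (SE 0.097, adjusted p = 0.00815). A ryegrass-named P450 (AK071864) was lower at -1.01, -1.48 and -0.38, and another (AK100633) higher at 0.40, 0.71 and 0.34. The wheat-named P450 N-1 (AK069017) was higher at 0.30, 1.64 and 0.14, largely on replicate 2. Flavanone-3-hydroxylase, a step of flavonoid synthesis (AK071218, barley), was at -0.79, -0.97 and -1.16 and the fit gave -0.97 (SE 0.09, adjusted p = 0.0124). Its P-deficient arrays were closer to 0, at -0.32, -0.33 and -0.22.

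Over the phenylpropanoid and flavonoid list 7 of 100 probes were lower and 5 higher, and its median of -0.026 turned to 0.034 without replicate 2. A tulip-tree laccase, an enzyme linked to lignin (AK072397), was higher and even over the arrays at 0.53, 0.52 and 0.63, fit 0.56 (SE 0.069, adjusted p = 0.0152). Cinnamyl alcohol dehydrogenase CAD1 of lignin synthesis (AK072000, perennial ryegrass) was higher at 0.13, 1.30 and 0.25, with Nipponbare well above background on 2 of 3 arrays. A flavanone 3-hydroxylase-like probe (AK068438, Arabidopsis) was lower at -0.32, -0.60 and -0.19. Diterpenoid synthesis had 3 of 8 probes lower and none higher, with a median of -0.65. That median was -0.36 without replicate 1 and -0.34 without replicate 2, and on the single arrays it was -0.67, -1.07 and 0.0058, so that replicate 3 showed no shift. These steps serve gibberellins and, in rice, antimicrobial phytoalexins. Kaurene synthase A (AK100333, maize) was at -1.12, -0.72 and -1.41, against 0.72, 0.22 and -0.26 without P, and the fit gave -1.04 (SE 0.19, adjusted p = 0.0258). Kaurene synthase (AK108710, maize) was at -0.49, -1.14 and -0.16 and ent-kaurene oxidase (AK066285, pumpkin) at -0.44, -1.09 and -0.92. Their fitted values were -0.69 (SE 0.11, adjusted p = 0.0207) and -0.94 (SE 0.16, adjusted p = 0.0223).

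Fermentation genes were lower in 3 of 21 probes of the low oxygen list and higher in none, with a median of -0.30, or -0.12 without replicate 2. Lactate dehydrogenase (AK106504), which reduces pyruvate to lactate, was at -0.90, -0.71 and -0.70, fit -0.77 (SE 0.098, adjusted p = 0.0155). Alcohol dehydrogenase 2, which makes ethanol, was at -0.87, -0.32 and -0.89 for the rice probe (AK102799) and -0.21, -0.78 and -1.06 for the maize-named one (AK101288). Their fitted values were -0.61 (SE 0.069, adjusted p = 0.0151) and -0.74 (SE 0.19, adjusted p = 0.0487). A drought-induced cowpea protein, CPRD12 (AK110700), was at -1.0, -1.47 and -1.37 with P and -0.25, 0.048 and -0.098 without, and the fit gave -1.32 (SE 0.093, adjusted p = 0.00587). The knotted-like homeobox factor (AK068954, Arabidopsis), a class of developmental regulators, was at -1.04, -0.89 and -2.39, fit -1.35 (SE 0.24, adjusted p = 0.0237). SAG29, named in Arabidopsis for senescence (AK109114), was at -1.31, -2.06 and -0.32, fit -1.29 (SE 0.32, adjusted p = 0.0483), and ranged more widely over the arrays than CPRD12.

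Some immune receptors and a small group of further genes had overlapping line ratios in both conditions. A pair of probes of J78, an NBS-LRR receptor named from common bean, was lower: AK102485 at -1.72, -2.38 and -2.40 and AK102672 at -1.79, -1.88 and -2.95. Their fitted values were -2.20 (SE 0.20, adjusted p = 0.0114) and -2.18 (SE 0.22, adjusted p = 0.0145), 4.6-fold and 4.52-fold lower signals. Under P deficiency they were at -1.82, -2.16 and -2.72 and at -1.59, -1.60 and -1.91, which overlapped the control arrays in each case. The differences between conditions were -0.0021 (SE 0.29, adjusted p = 0.997) and -0.45 (SE 0.33, adjusted p = 0.386). Another J78 probe, AK060643, was not called, at -0.23, -1.37 and 0.052. The rice NBS-LRR probe YR14 (AK065947) was at -1.94, -1.83 and -2.11, fit -2.04 (SE 0.23, adjusted p = 0.0151), and at -1.81, -1.05 and -2.57 without P. Its 2 companions of that description, AK066438 and AK066341, were not called.

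In all, 10 of 184 NBS-LRR probes were lower and 6 higher, 8.7% against the 7.44% of all probes. The YR5 probe AK073424 was lower at -0.57, -1.59 and -2.04, with 6-4 well above background on 2 of 3 arrays. Another probe of that description, AK100303, was called higher at 0.20, 0.74 and 0.35. The barley MLA13 probe AK066312 was higher at 0.24, 0.84 and 0.072, largest on replicate 2, while AK101496 of the same description was called lower at -0.34, -0.38 and -0.45. PibH8 (AK100778), a relative of the blast resistance gene Pib, was higher at 0.70, 1.31 and 0.23, with Nipponbare well above background on 2 of 3 arrays. The Cf-9 precursor probe (AK065680), a tomato receptor-like protein of the cell surface, was at -0.94, -1.76 and -2.99, fit -1.97 (SE 0.39, adjusted p = 0.0279). It differed between conditions, at -0.072, 1.11 and 0.048 without P and a difference of -2.41 (SE 0.56, adjusted p = 0.0295).

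Outside the receptors, a foxglove-named cyclophilin, a protein-folding enzyme (AK058898), was at -1.89, -1.85 and -2.17 with P and -1.74, -2.40 and -1.63 without, and the fit gave -1.90 (SE 0.11, adjusted p = 0.00284). The goatgrass-named csAtPR5 (AK059260), of the thaumatin-like PR-5 proteins, was at -1.85, -1.65 and -2.08 and -1.82, -1.47 and -1.91, with a control fit of -1.86 (SE 0.12, adjusted p = 0.00431). It passed also without replicate 2. Other probes of its description (AK073546, AK061153, AK071788, AK106609 and AK109038) were not called, with fitted values from -0.085 to 0.48. The replication protein RPA70a (AK064837), which binds single-stranded DNA, was at -0.89, -0.73 and -1.64 and -1.05, -1.71 and -2.24, and the fit gave -1.04 (SE 0.25, adjusted p = 0.0427). For AK058898, AK059260 and AK064837 the arrays of the conditions overlapped. Another RPA70a probe, AK059230, was not called, with a fitted value of -0.0042. The opium poppy-named oxidoreductase cor2 held both extremes. AK109414 was at -3.11, -2.81 and -3.26, fit -3.01 (SE 0.14, adjusted p = 0.00186), with 6-4 well above background on 2 of 3 arrays, and AK103772 at 1.96, 2.78 and 2.82, fit 2.50 (SE 0.38, adjusted p = 0.02). Under P deficiency they were at -3.42, -3.28 and -2.65 and 3.11, 2.78 and 1.14. Of the 5 other cor2 probes, 3 were called lower, and the fitted values of the 5 ran from -0.51 to -0.13.

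**Figure D3:**
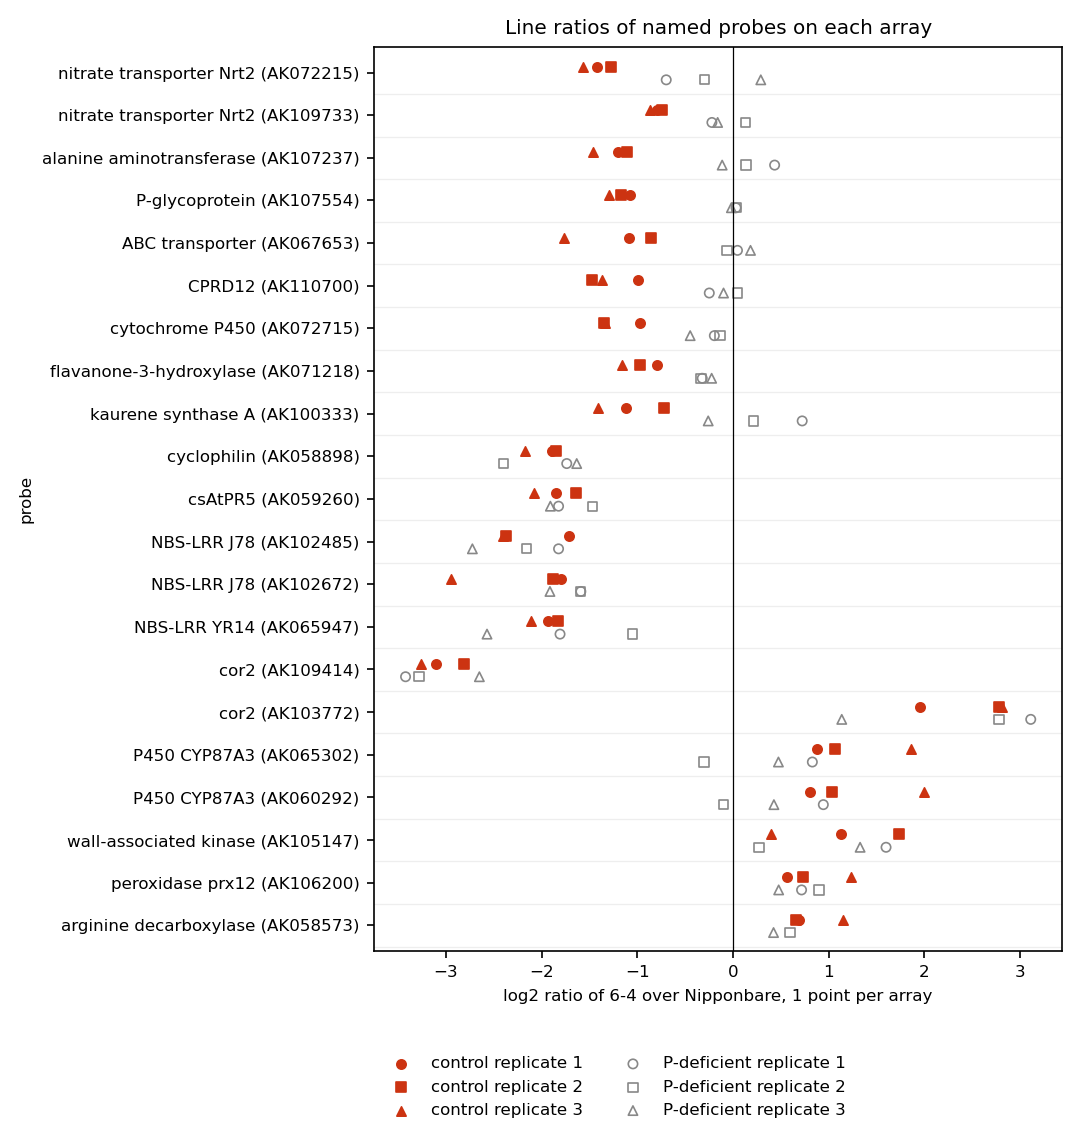
Log2 ratio of 6-4 over Nipponbare (x axis) on each array for 21 named probes, 3 arrays with P supplied (filled) and 3 under P deficiency (open). From Nrt2 to kaurene synthase A the filled points lie left of all open points, while from cyclophilin to cor2 both kinds overlap.

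Fewer named genes were clearly higher in 6-4. Of 6 probes described as CYP87A3, a rice cytochrome P450, 2 were called, at 0.88, 1.07 and 1.87 (AK065302, fit 1.33 (SE 0.25, adjusted p = 0.0259)) and 0.81, 1.03 and 2.0 (AK060292, fit 1.32 (SE 0.27, adjusted p = 0.0307)). The other 4 were not called, with fitted values from -0.11 to 0.30. Under P deficiency AK065302 was at 0.83, -0.30 and 0.48. Arginine decarboxylase, a first step of polyamine synthesis (AK058573, oat), was at 0.70, 0.66 and 1.15, fit 0.80 (SE 0.11, adjusted p = 0.02), and at 0.60 and 0.43 on the 2 P-deficient arrays that measured it. Peroxidase prx12 (AK106200, spinach) was at 0.56, 0.74 and 1.23, fit 0.81 (SE 0.13, adjusted p = 0.0223), and at 0.72, 0.90 and 0.48 without P. The peroxidase ATP32 (AK069503, Arabidopsis) was at 0.58, 0.52 and 0.51 with P and -0.62, -0.58 and -0.23 without, so the sign of the line difference turned, with a difference of 1.03 (SE 0.14, adjusted p = 0.00736).

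A rice wall-associated protein kinase, a receptor kinase anchored to pectin (AK105147), was at 1.13, 1.74 and 0.40, fit 1.27 (SE 0.14, adjusted p = 0.0151), and at 1.60, 0.27 and 1.33 without P. Xyloglucan endotransglycosylase, which cuts and rejoins wall xyloglucan (AK070734), was at 0.48, 1.88 and 0.91, fit 1.20 (SE 0.22, adjusted p = 0.0245). The dehydration-responsive protein RD22 (AK105947, peach) was at 0.46, 1.03 and 0.69, fit 0.82 (SE 0.13, adjusted p = 0.02), and a class III chitinase homologue (AK064356) at 0.31, 0.72 and 1.31, fit 0.79 (SE 0.19, adjusted p = 0.0437). The Cen-like protein FDR2 (AK110622), of the family of flowering-time regulators, was at 1.06, 0.81 and 0.46, fit 0.80 (SE 0.15, adjusted p = 0.0268). A flavin-containing monooxygenase named from dog (AK071801) was at 0.86, 1.35 and 0.36, fit 0.98 (SE 0.10, adjusted p = 0.0148). The partial homologue of ribosomal protein L19 (AK059309) was at 0.042, 1.37 and 0.85, fit 0.89 (SE 0.15, adjusted p = 0.0233), with replicate 1 at about 0.

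Dim probes were not well above background in both lines on every control array. The filter could admit them through the line in which they were higher. Of 2165 dim probes 16.0% were called, against 6.43% of 18360 bright ones, so their adjusted p is no independent support. Among higher probes that were dim in 1 channel, 12-oxophytodienoic acid reductase RRJ4 of jasmonate synthesis (AK105590) led at 1.78, 2.58 and 0.92, fit 1.95 (SE 0.20, adjusted p = 0.0145). Its P-deficient arrays were at 0.28, -0.40 and 1.01. Other RRJ4 probes (AK100034, AK108079, AK069898, AK103067 and AK061212) were not called, with fitted values from -0.026 to 0.10. COP9 complex subunit 6, part of a regulator of protein turnover (AK106674, Arabidopsis), was at 0.93, 0.83 and 1.07, fit 0.98 (SE 0.13, adjusted p = 0.0156), even over the arrays. The soybean peroxidase Prx3 (AK061040) was at 0.064, 1.62 and 0.017, which rested on replicate 2. In AK105590, AK106674 and AK061040 the Nipponbare channel was well above background on 2 of 3 arrays. Among dim lower probes were a zinc finger protein (AK067268, Arabidopsis) at -0.64, -1.48 and -0.79 and the petunia zinc finger ZPT2-14 (AK105226) at -0.97, -0.97 and -0.80. A nodulin-like protein (AK070844, Arabidopsis) was lower at -0.76, -0.89 and -0.97 and a transport protein (AK069522, Arabidopsis) at -0.69, -0.82 and -0.51. In these 4, 6-4 was well above background on 1 or 2 of 3 arrays. The authors' ratio stretched such probes: AK107190 was at 0.033, 6.32 and 0.26 there, and AK067268 at -3.43, -3.01 and -3.59.

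Defence proteins other than receptors had 11 of 104 probes lower and 3 higher, and their median of -0.049 turned to 0.016 without replicate 2. A parsley-named chitinase (AK063062) was at -0.65, -0.94 and -0.64, fit -0.77 (SE 0.076, adjusted p = 0.0152), and the rice endochitinase (AK108949) at -0.43, -0.53 and -0.72. The tobacco hsr203J probe, a marker of the hypersensitive response (AK061124), was at -0.79, -0.75 and -0.85, fit -0.73 (SE 0.12, adjusted p = 0.0214). Germin-like proteins, secreted wall proteins, had 3 of 16 lower and 1 higher. GER2 (AK059812) was at -1.18, -0.99 and -1.0 with P and 0.13, 1.08 and -0.33 without, and the fit gave -1.14 (SE 0.20, adjusted p = 0.0233). Another GER2 probe, AK059781, was not called, with a fitted value of 0.22. GER6 (AK061029) was at -0.58, -0.57 and -0.70, the Medicago germin-like protein 1 (AK108987) at -0.52, -1.04 and -1.56 and the potato OXAOXA probe (AK105351), higher, at 0.13, 0.40 and 0.51. Class III peroxidases, at 2 of 85 lower and 4 higher (7.06%), were near the share of all probes, and the lower POX22.3 (AK073202) was at -0.31, -0.34 and -0.49.

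Many of the calls named in wall and signalling lists had their largest ratio on replicate 2. Cellulose and wall loosening had 1 of 92 probes lower and 5 higher (6.52%). Expansin 26, which loosens walls (AK071328), was higher at 0.23, 1.02 and 0.079, an endoglucanase inhibitor (AK070554, tomato) higher at 0.49, 0.42 and 0.60, and the cellulose synthase CesA-5 (AK061688, maize) lower at -0.48, -0.73 and -0.0034. Wall-associated kinases had 5 of 27 lower and 2 higher (25.9%). The Arabidopsis-named kinases AK111541 and AK111809 were lower at -0.57, -0.98 and -0.70 and -0.27, -1.07 and -0.38, and the rice kinase AK108554 higher at 0.0085, 0.92 and 0.042. On the P-deficient replicate 2 array, which has the opposite dye order, AK111541 was at 1.06.

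Other receptor-like kinases had 10 of 191 lower and 3 higher (6.81%). AK059352 (Arabidopsis) was higher at 0.22, 0.93 and 0.32, while the bean kinase RK20-1 (AK110420) at -0.016, -0.93 and -0.22 and RLK5 (AK064115, Arabidopsis) at -0.10, -0.82 and -0.36 were lower, chiefly on replicate 2. AK100082 (Arabidopsis) was lower at -0.63, -0.45 and -0.73, with its smallest ratio on replicate 2. WRKY factors had 1 of 28 lower and 1 higher: WRKY71 (AK108745) at -0.38, -0.57 and -0.0071 and WRKY13 (AK108755) at 0.046, 0.51 and 0.16, both named from Arabidopsis.

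In the auxin list 5 of 72 probes were lower and 3 higher. The GH3 homologue DFL-1 (AK063368, Arabidopsis) and a SAUR-like protein (AK062898, pepper) were lower at -0.015, -0.92 and -0.19 and at -0.40, -0.77 and -0.052. An axi 1-like protein (AK105475, Arabidopsis) was higher at 0.24, 0.91 and 0.32. In these the largest ratio was that of replicate 2. Another SAUR-like probe of the pepper description, AK058556, was called higher at 0.69, 0.67 and 0.081. The ethylene and jasmonate list had 4 of 59 probes higher and none lower. Besides RRJ4 these were an AP2 factor (AK062612, Arabidopsis) at 0.11, 0.57 and 0.088, the ethylene receptor ERS2 (AK111696) at 0.07, 0.55 and 0.12 and ACC synthase ACC1 of ethylene synthesis (AK071011) at 0.51, 0.58 and 0.017.

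Sucrose and starch had 3 of 96 probes lower and 5 higher (8.33%). Soluble starch synthases were higher at 0.44, 0.75 and 0.37 (AK109458) and 0.28, 0.60 and 0.47 (AK072339), with sucrose synthase (AK065549, Citrus) at 0.29, 0.50 and 0.56. An alpha-amylase entry (AK065786) was higher at 0.27, 0.88 and 0.12. Metal handling had 2 of 28 higher and none lower, nicotianamine aminotransferase naat-A of iron uptake (AK060557, barley) at 0.48, 0.85 and 0.27 and the zinc transporter ZIP1 (AK069804, Arabidopsis) at 0.69, 0.50 and 0.15. Heat shock proteins had 4 of 58 lower and 2 higher. HSP101 (AK105433) was lower at -0.39, -1.07 and -0.11, heat shock protein 26 (AK063618) at -0.42, -0.68 and -0.066 and another heat shock protein (AK102426, wheat) at -0.28, -0.39 and -0.27, while soybean-named Hsp22.3 (AK107883) was higher at 0.17, 0.77 and 0.0088. Of 51 glutathione S-transferases 1 was lower (AK069105) at -0.22, -0.79 and -0.43. Among 34 probes of histones and DNA replication, RPA70a was lower and a histone H1flk probe (AK099948, Arabidopsis) higher at 0.11, 0.78 and 0.051.

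**Figure D4:**
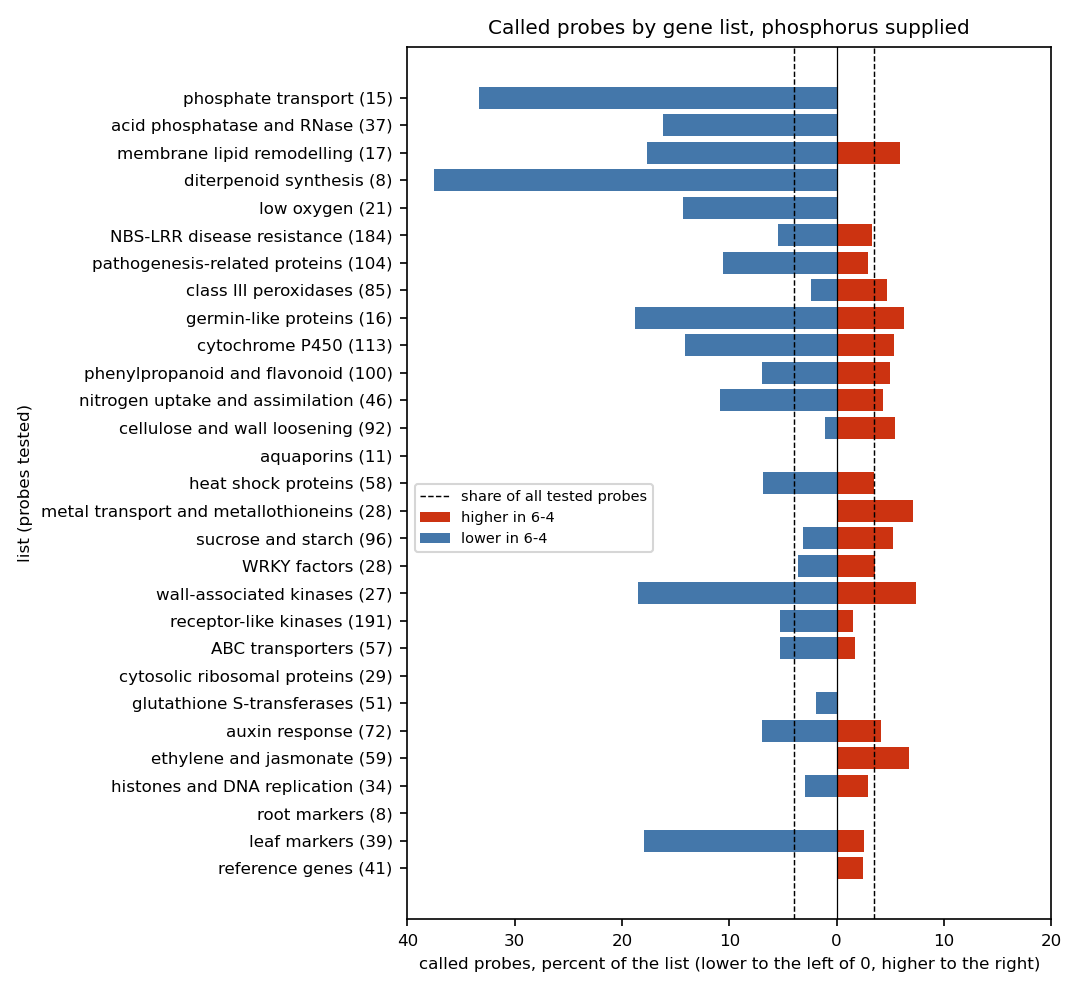
Share of each list's tested probes that was called lower in 6-4 (blue, left of 0) or higher (red, right of 0), with the number tested in brackets. Dashed lines mark the shares over all probes, 4% lower and 3.44% higher; phosphate transport reached 5 of 15 lower.

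Root markers and reference genes were rarely called. None of 8 root markers was called, at a median of 0.17 that turned to -0.060 without replicate 2. Their summed level in 6-4 over that in Nipponbare was 0.023, 0.34 and 0.064 (log2) on replicates 1, 2 and 3, and RCc2 (AK063090) was at 0.67, -0.19 and 0.66. The leaf marker list, meant for photosynthesis transcripts of green tissue, had 7 of 39 probes lower and 1 higher, at a median of -0.16. It was matched by words in the descriptions. It so took in the Rubisco-binding protein probes AK061410 and AK100602, both called lower, which are not photosynthesis enzymes. The log2 ratio of the list's summed levels was -0.13, 0.028 and -0.64, and 34 of its 45 probes were well above background in both lines on every array. The part of green tissue in the results above was not tested. The called probes of this list with the smallest p included a spruce Rubisco probe (AK062203) at -0.13, -1.02 and -0.76. The others were the photosystem protein PSII-S (AK058284) at -0.17, -0.72 and -0.38, a Rubisco-binding protein (AK061410, wheat) at -0.42, -0.57 and -0.27 and a light-harvesting protein (AK061272) at -0.53, -0.24 and -0.33. None of 11 aquaporins was called, the lowest p being that of AK063007 (0.28 (SE 0.08, adjusted p = 0.0679)), nor of 29 ribosomal protein probes, where AK063068 passed the adjusted p at 0.52 (SE 0.13, adjusted p = 0.0473) but had mixed signs (-0.09, 1.25 and -0.069). Of 41 reference genes 1 was called, an actin probe (AK109896, Arabidopsis) at 0.11, 1.22 and 0.024.

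Probes with no descriptive name included differences that varied little over the arrays. AK106867 was at -2.53, -2.51 and -2.90 with P and -2.23, -2.53 and -2.31 without, the fit gave -2.61 (SE 0.089, adjusted p = 0.000602), and it passed also without replicate 2. AK071141, an unknown protein, was lower at -1.97, -1.97 and -2.86 and AK063771 at -1.77, -2.17 and -2.50. Higher were AK111754 at 1.26, 1.51 and 1.64, AK065534 at 0.79, 1.18 and 1.59 and AK063772 at 0.57, 2.95 and 0.72, the last with Nipponbare well above background on 2 of 3 arrays and its largest ratio on replicate 2.

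For the set of 139 called probes with at least 0.5 on every control array, the P-deficient arrays are given as a description, since they shared the fit whose adjusted p chose the set. On these, 69 (49.6%) kept their direction on all 3 arrays, 57 of the lower and 12 of the higher probes. A further 2 had the opposite sign on all 3 arrays, and 68 were mixed. Of all probes 33.6% had 1 sign throughout, in either direction, so that share is not one of keeping a given direction. Over all probes 8.94% passed the adjusted p for the line effect under P deficiency. The test of the difference between conditions passed for 58 of the 139 and for 19.7% of all probes. The set was chosen for large control ratios, which enter that difference, so the choice itself favours a higher count and nothing is read from it. The dye orders of the conditions mirror each other, so effects of single arrays cannot be told apart from this difference, and without the dye term limma called 0 such differences (1785 at an unadjusted p under 0.05). The share of lower probes in the set moved with the ratio used: 119 of 139 (85.6%) were lower here, and 98 of 145 (67.6%) with the authors' deposited ratio. For all called probes the lower share was 53.8% here, 43.0% with the deposited ratio, 43.7% with negative controls as background and 73.2% with median centring.

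**Figure D5:**
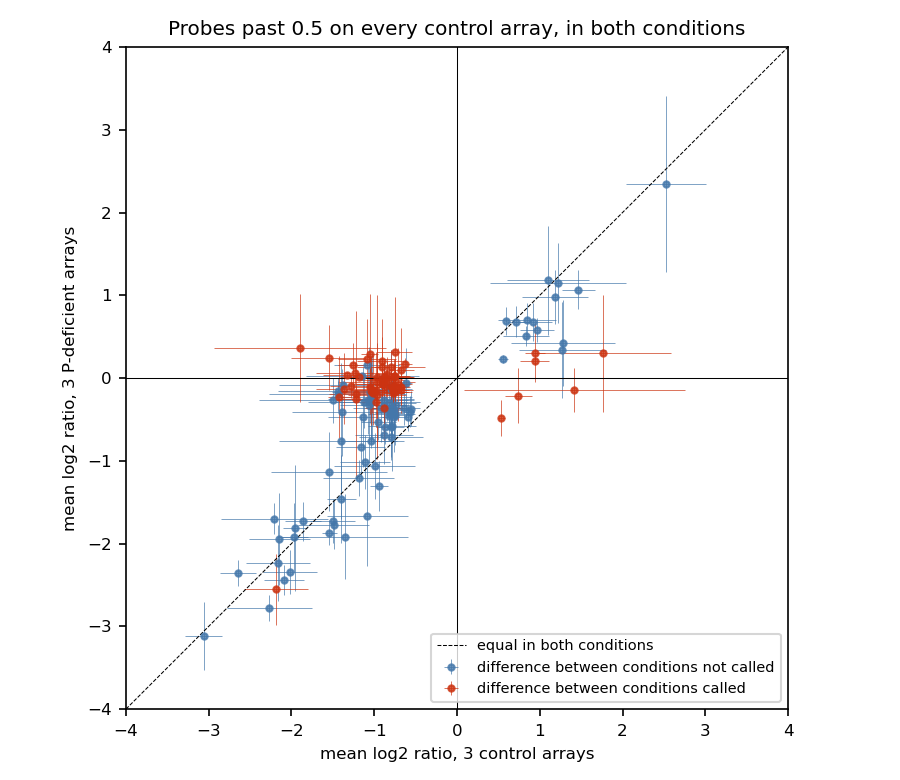
Mean log2 ratio over the 3 control arrays (x axis) and the 3 P-deficient arrays (y axis) for the 139 probes, with bars of 1 SD over the arrays. Red points are the 58 whose difference between conditions passed the adjusted p, most of them near 0 on the y axis, and points near the dashed line had equal ratios in both conditions.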

How the data were processed

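The deposited Cy3 and Cy5 spot intensity values came from Agilent Feature Extraction, version 7.1 (control replicates 1 and 2) or 8.1 (replicate 3), per the file headers. That software also gave the deposited log10 ratios, after background subtraction and dye normalization, per the file headers. They served as an alternative. RNA was linearly amplified and labelled, per the labels' protocols. Here, mean and background signals were corrected with normexp at an offset of 50 and normalized by loess within arrays in limma 3.58.1 (R 4.3.3). Control spots and spots flagged as outliers had weight 0. Of 21495 rice probes 20531 were well above background on every array of 1 or more of the 4 line and condition groups, and 20525 could be fitted. One lmFit and eBayes fit on all 6 arrays held the line effect of either condition and a dye term, with 3 residual and 3.64 prior degrees of freedom. Adjusted p is Benjamini-Hochberg over all probes tested. On simulated data with 20525 probes, for this comparison, the fit recovered 22 of 67 changes of 0.5, 51 of 67 of 1 and 63 of 66 of 2 log2 units, with 4 false calls. There a change counted by its adjusted p and fitted sign, and a false call by its adjusted p. The rule of 1 sign on all 3 control arrays was not applied, so these figures do not describe the called probes. The simulated noise was independent over probes and arrays, so deviations shared by many probes of an array were not modelled. Its false calls therefore do not measure the error in the real data.

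Named genes had a descriptive name and were called: the 12 largest bright and 6 largest dim probes in each direction, up to 4 per list by p, and 3 per direction without a name. The members and the 30 lists were chosen with earlier results of these data known. Descriptions are the array design's. The reference gene table held 0 of the probe accessions, so no position or sequence is given. The number of arrays limits the precision. Where a spot was flagged, the fit used the remaining arrays. One probe that the naming rule selected is not reported here.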

Additional observations from a re-analysis of the deposited data

Results flagged for a closer look

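Most named probes were chosen by their control ratio, which enters the difference between conditions. That choice favours a higher count, so nothing is read from the count below. For 71 of 121 named probes the line ratio differed between the conditions, against 19.7% of all probes, by the adjusted p of control minus P deficiency in limma's fit. In 38 of them the ratio with P supplied was the lower one, and replicate 2 held the largest control ratio for 20 of these. In the other 33 the ratio with P supplied was the higher one, and replicate 2 held the largest for 29. Among genes of P nutrition the difference was -0.65 for the phosphate transporter Pht1-2 (AK101170), -0.74 for the ribonuclease (AK058502), -0.70 for a purple acid phosphatase (AK071643), -0.83 for MGDG synthase (AK064148), -0.60 for the glycerophosphodiester phosphodiesterase (AK071836), -0.53 for phospholipase D (AK072121), 0.83 for phospholipase D delta (AK069703) and -0.70 for the ids4-like protein (AK107245). In nitrogen use it was -1.37 for alanine aminotransferase (AK107237), -1.14 for Nrt2 (AK072215), -0.76 for the second Nrt2 (AK109733) and 1.12 for SAT1 (AK107190). For ABC transporters it was -1.20 for the P-glycoprotein (AK107554), -1.17 for the second transporter (AK067653), -0.58 for the multidrug resistance homologue (AK108373) and 1.03 for PED3 (AK064992). In metabolism it was -1.22 for kaurene synthase A (AK100333), -1.20 for ent-kaurene oxidase (AK066285), -1.02 for the cytochrome P450 from Matthiola (AK072715), 1.13 for P450 N-1 (AK069017), 0.54 for a ryegrass P450 (AK100633), -0.67 for flavanone-3-hydroxylase (AK071218), 1.05 for CAD1 (AK072000) and -0.59 for lactate dehydrogenase (AK106504). Sugar and metal genes stood at 0.64 for starch synthase (AK109458), 0.54 for starch synthase II-1 (AK072339), 0.81 for alpha-amylase (AK065786), 0.44 for sucrose synthase (AK065549), 0.73 for naat-A (AK060557) and -0.91 for the glutathione S-transferase (AK069105). For defence genes it was -2.41 for the Cf-9 precursor (AK065680), -1.53 for GER2 (AK059812), 1.03 for peroxidase ATP32 (AK069503), 1.29 for peroxidase Prx3 (AK061040), 0.86 for MLA13 (AK066312) and 0.86 for PibH8 (AK100778).

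For kinases it was -1.31 for the wall-associated kinase (AK111541), -0.74 for the wall-associated kinase (AK111809), 0.90 for the rice wall-associated kinase (AK108554), -1.17 for RK20-1 (AK110420), -0.92 for RLK5 (AK064115) and 0.96 for a receptor kinase (AK059352). Hormone-related probes had 1.84 for RRJ4 (AK105590), -1.01 for DFL-1 (AK063368), -0.82 for the SAUR-like protein (AK062898), 0.70 for the axi 1-like protein (AK105475), 0.83 for the AP2 factor (AK062612), 0.46 for ERS2 (AK111696) and 0.61 for ACC1 (AK071011). Regulators and chaperones had -1.37 for the zinc finger protein (AK067268), -1.16 for ZPT2-14 (AK105226), 0.46 for WRKY13 (AK108755), 0.71 for COP9 subunit 6 (AK106674), 0.95 for FDR2 (AK110622), 0.48 for histone H1flk (AK099948), -0.56 for HSP101 (AK105433), -0.60 for heat shock protein 26 (AK063618) and 0.82 for Hsp22.3 (AK107883). Marker and reference probes had -0.74 for RCc2 (AK063090), -0.68 for PSII-S (AK058284), -0.51 for the Rubisco-binding protein (AK061410), -0.48 for the light-harvesting protein (AK061272), 0.92 for ribosomal protein S3 (AK063068), 1.13 for the L19 homologue (AK059309) and 1.14 for actin (AK109896). The rest comprised -1.27 for CPRD12 (AK110700), -0.93 for the transport protein (AK069522), -0.87 for CesA-5 (AK061688), 1.06 for expansin 26 (AK071328), 1.02 for the flavin-containing monooxygenase (AK071801) and 2.02 for AK063772, which has no descriptive name. All are log2 units, control minus P deficiency. The dye orders of the conditions mirror each other, so effects of single arrays and these differences cannot be told apart.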

How the results depend on the processing

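Over 18 alternatives no named probe changed direction, which the choice of probes with 1 sign on every array largely fixes. Of 2134 values of named probes 1329 stayed on their side of the threshold, 803 no longer passed and 2 passed only in the alternative. Counts moved far more, and the cause was not tested, also where fewer arrays or probes entered. The order below is called probes, then higher, lower, all with an adjusted p under 0.05, those with at least 0.5 on every array, and differences between conditions, against 1527, 706, 821, 2653, 139 and 4035; a count within 1.5 times is left out. The authors' ratio gave 456, 260, 196, 705 and 1986 differences. Median centring gave 298, 80, 218, 827, 77 and 2140, with the same sign on every array for 15.4% of probes. Keeping only probes well above background in both channels gave 901, 383, 518, 1333 and 2579 differences. The 3 control arrays alone gave 349, 149, 200 and 590 with a dye term, and without it 2, 0, 2, 2 and 2, where 420 were higher at an unadjusted p under 0.05. All 6 arrays without a dye term gave 24, 3, 21, 24, 24 and 0 differences. Version 7.1 alone, which holds 2 control arrays, gave 2490, 1206, 1284 and 424 with at least 0.5, and 1 sign on both for 52.3%. Negative controls as background, chosen after seeing the data, gave 682, 384, 298, 1314 and 2571 differences, and 1 sign for 27.6%. Line ratios of equal replicate numbers deviated against each other (r = -0.604, -0.751 and -0.371 over 20054 probes). Such numbers hold the lines in opposite dyes, which can give this sign, so whether they pair arrays was not settled. A replicate block gave 758, 336, 422, 1349 and 2539 differences.

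Leaving out 1 array gave 2 to 3560 called probes, 0 to 1752 higher, 2 to 1808 lower, 2 to 4240 with an adjusted p under 0.05, 2 to 430 with at least 0.5 and 0 to 6148 differences. The lowest came without control replicate 2 (732 higher and 4106 differences at an unadjusted p under 0.05) and the highest without control replicate 3. Without P-deficient replicates 1, 2 and 3 the called probes numbered 236, 991 and 25. A control pair of 1 dye order takes its dye term from the P-deficient arrays alone.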
